A study of Homo sapiens with 8 samples.

Results

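The transcripts of 7 genes that build caveolae, namely CAV1, CAV2, CAVIN1, CAVIN2, CAVIN3, EHD2 and PACSIN2, were followed in renal cell carcinoma cells cultured with or without branched-chain amino acids (BCAAs). The members were taken by gene symbol, and all 7 were listed for both cell lines, out of 27776 genes listed for at least 1 line and 21845 listed for both. CAVIN2 was selected on its measured values, a rise with BCAAs in both lines, so its BCAA effect is given as a description without a test. The other 6 members came in as its partners in the caveolar coat and were tested. 769-P and CAKI-1 are established human renal carcinoma lines. 769-P is grown from a primary tumor and CAKI-1 from a metastasis, and each stands for a single patient's tumor. In each line, cells kept for 16 hours in medium with isoleucine (0.38 mM), leucine (0.38 mM) and valine (0.17 mM) were compared with cells kept in medium without these 3 amino acids, and the labels name no genetic change or drug in any group. RNA-seq was performed on 2 libraries per condition and line, 8 in all. The labels do not say whether the 2 libraries came from separate cultures, so p-values measure only the spread between libraries.

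Caveolae are flask-shaped pits of the plasma membrane. The integral proteins caveolin-1 and caveolin-2 form oligomers in the membrane, the cavins assemble around them as a peripheral coat, and EHD2 and PACSIN2 sit at the neck, where they stabilize and shape the pit. Cavin-1, the product of CAVIN1, is needed for caveolae to form, whereas cavin-2 (CAVIN2) and cavin-3 (CAVIN3) join cavin-1 in separate complexes and affect the shape and trafficking of the pit. Caveolae buffer membrane tension, take part in lipid uptake and hold signalling receptors, and they are abundant in endothelial cells, adipocytes and muscle.

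Values are the deposited normalised read counts, that is, reads per gene divided by a size factor of the library. The tables of the 2 lines were scaled separately, so levels are compared within a line only. Between 30979773 and 64256834 reads per library lay on listed genes. In 769-P both libraries with BCAAs (64256834 and 55829324 reads) were deeper than both libraries without (39062721 and 40130258), so depth moved with condition there. After the reads of every library were thinned at random to 30979773, the 4 members called in 769-P were still called. The tumor line labels were checked against marker genes. In each line 6 of 9 renal tubule and clear cell carcinoma markers had a mean of at least 100, PAX8, KRT8, KRT18, VIM and CDH6 in both and PAX2 in 769-P or NDUFA4L2 in CAKI-1. NDUFA4L2, a gene high in clear cell carcinoma, was near absent from 769-P (0.758 to 2.57) and stood at 88.5 to 216 in CAKI-1, and LHX1 did not exceed 44.0 in either line. CA9, a marker of clear cell carcinoma, was not listed in either line, and PAX2 was not listed in CAKI-1. Since caveolae abound in other cell types, their markers were summed as well. The sums of 7 endothelial markers lay between 6.11 and 23.8 in all 8 libraries and those of 5 adipocyte markers between 0 and 14.5, while those of 4 blood cell markers did not exceed 11.4. The sums of 6 muscle markers lay between 8.55 and 29.8 in 769-P, and in CAKI-1 between 429 and 445 with BCAAs and between 360 and 418 without, nearly all of it from CNN1, calponin-1.

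The promoter sequences of 3 members are shown because CAVIN2 was selected on its rise in both lines, and because CAV1 and CAV2, whose log2 fold changes with BCAAs had opposite signs, are neighbors on chromosome 7. Each is the 250 bases before a RefSeq start site (GRCh38.p14), written 5′ to 3′ on the strand of the gene, with matches to the searched motifs in capitals. Of the 7 members, 5 had an entry in the promoter table, with 13 windows in all. The CAVIN2 window lies on the minus strand at chr2:191847089-191847338, the CAV1 window on the plus strand at chr7:116524759-116525008, and the CAV2 window on the plus strand at chr7:116499488-116499737. For CAV1 and CAV2, which have more than 1 window, the one listed first is shown.
CAVIN2: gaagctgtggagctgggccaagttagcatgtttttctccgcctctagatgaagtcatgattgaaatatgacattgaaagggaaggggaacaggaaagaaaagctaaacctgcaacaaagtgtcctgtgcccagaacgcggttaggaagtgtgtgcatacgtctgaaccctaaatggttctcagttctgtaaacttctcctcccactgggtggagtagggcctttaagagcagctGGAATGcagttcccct
CAV1: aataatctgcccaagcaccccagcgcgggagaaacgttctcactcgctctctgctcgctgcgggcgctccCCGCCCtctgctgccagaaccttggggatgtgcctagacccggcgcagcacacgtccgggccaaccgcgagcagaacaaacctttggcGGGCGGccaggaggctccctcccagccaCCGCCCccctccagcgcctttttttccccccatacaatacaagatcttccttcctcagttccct
CAV2: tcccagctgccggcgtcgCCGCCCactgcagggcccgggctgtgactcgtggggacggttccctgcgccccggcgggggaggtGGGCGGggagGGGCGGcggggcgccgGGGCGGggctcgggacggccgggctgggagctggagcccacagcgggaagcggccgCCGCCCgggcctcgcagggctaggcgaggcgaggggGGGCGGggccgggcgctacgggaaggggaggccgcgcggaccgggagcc
Both strands were searched for E2F sites (TTTCCCGC and TTTGGCGC), a TEAD site (GGAATG), the CArG box, NF-Y (CCAAT), SP1 (GGGCGG), AP-1 (TGANTCA), ATF4 (TGATGNAA) and a sterol element (TCACNCCAC). The CAVIN2 window held 1 match, the TEAD letters, which begin 16 bases before the start site. Of all 35116 RefSeq windows, which also take in 50 bases after the start, 14.0% held those letters. The CAV1 window held 3 SP1 matches and the CAV2 window 6, and 45.0% of all windows held at least 1. The base composition differed as well, with 48.0% G or C in the CAVIN2 bases shown, 63.6% in those of CAV1 and 83.2% in those of CAV2. The 1 window of EHD2 (chr19:47713172-47713471) held 1 SP1 match. Among the 6 windows of PACSIN2, 4 held the TEAD letters and 3 the ATF4 letters, which 3.62% of all windows held. The 3 windows with the ATF4 letters overlap one another and hold the same TEAD and ATF4 sites, so these are not separate sites. The PACSIN2 window at chr22:43015100-43015399 held NF-Y and SP1 matches, and 34.6% of all windows held the NF-Y letters. No member window held the E2F, CArG, AP-1 or sterol letters, which says only that these letters were not found there.

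The caveolins were the most abundant members in 769-P. CAV1 (ENSG00000105974) lies on the plus strand of chromosome 7 from 116524785 to 116561184, and CAV2 (ENSG00000105971) from 116287380 to 116508541, ending 16243 bases upstream of CAV1 (GENCODE 29, GRCh38). Counts were divided by the length of all annotated exons to compare genes. On this scale, CAV1 stood at 13902 ± 150 (SD, n = 2) normalised counts per kilobase in 769-P with BCAAs, followed by CAV2 at 4255 ± 66.3, PACSIN2 at 2598 ± 115 and CAVIN3 at 1473 ± 56.0. CAVIN2 (695 ± 66.8), EHD2 (468 ± 32.8) and CAVIN1 (134 ± 7.30) were the lowest. Without BCAAs the order was the same except that CAVIN2, at 166 per kilobase, dropped below EHD2, at 479. In every case each member lay above the next in both libraries of its condition. The margin was narrow for CAVIN3 over EHD2 without BCAAs (516 and 513 against 445 and 512).

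CAKI-1 had a different order, with CAVIN1 at the top. With BCAAs, CAVIN1 stood at 12384 ± 386 per kilobase (SD, n = 2) and CAV1 at 7844 ± 268, followed by EHD2 (2977), CAV2 (1574), PACSIN2 (834), CAVIN3 (692) and, far below, CAVIN2 (26.0 ± 2.24). Without BCAAs, the values were 7937 for CAVIN1, 6038 for CAV1, 2986 for EHD2 and 1664 for CAV2. CAVIN3 (798) and PACSIN2 (762) then overlapped between libraries and could not be ordered, and CAVIN2 was again last at 6.31 ± 2.73. The levels depend on the length used. When the longest transcript was taken instead, CAV2 in 769-P with BCAAs stood at 8928 per kilobase and CAV1 at 17728, with the order in this line unchanged. CAVIN1 still ranked above CAV1 in CAKI-1, but CAV2 (3302 with BCAAs) overlapped EHD2 (3258) and without BCAAs it ranked above EHD2 (3492 against 3268).

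Because a ratio within a library does not depend on its scaling, the make-up of the coat could be set side by side between lines. CAVIN1 stood at 0.936 to 1.16 per 100 of CAV1 in the 4 libraries of 769-P and at 128 to 158 per 100 in the 4 of CAKI-1, a geometric mean ratio 141-fold higher in CAKI-1. EHD2 stood at 3.22 to 4.13 per 100 of CAV1 in 769-P and at 36.4 to 52.0 in CAKI-1, 11.9-fold higher. CAVIN2 relative to CAV1 was 14.4-fold higher in 769-P, PACSIN2 1.82-fold and CAV2 1.53-fold, and for each of these 5 ratios the lines did not overlap. Only for CAVIN3 of the 6 ratios did the lines overlap. These ratios were looked at after the values were known and were not tested, and each line is a single example, so what sets the lines apart was not tested.

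**Figure D1:**
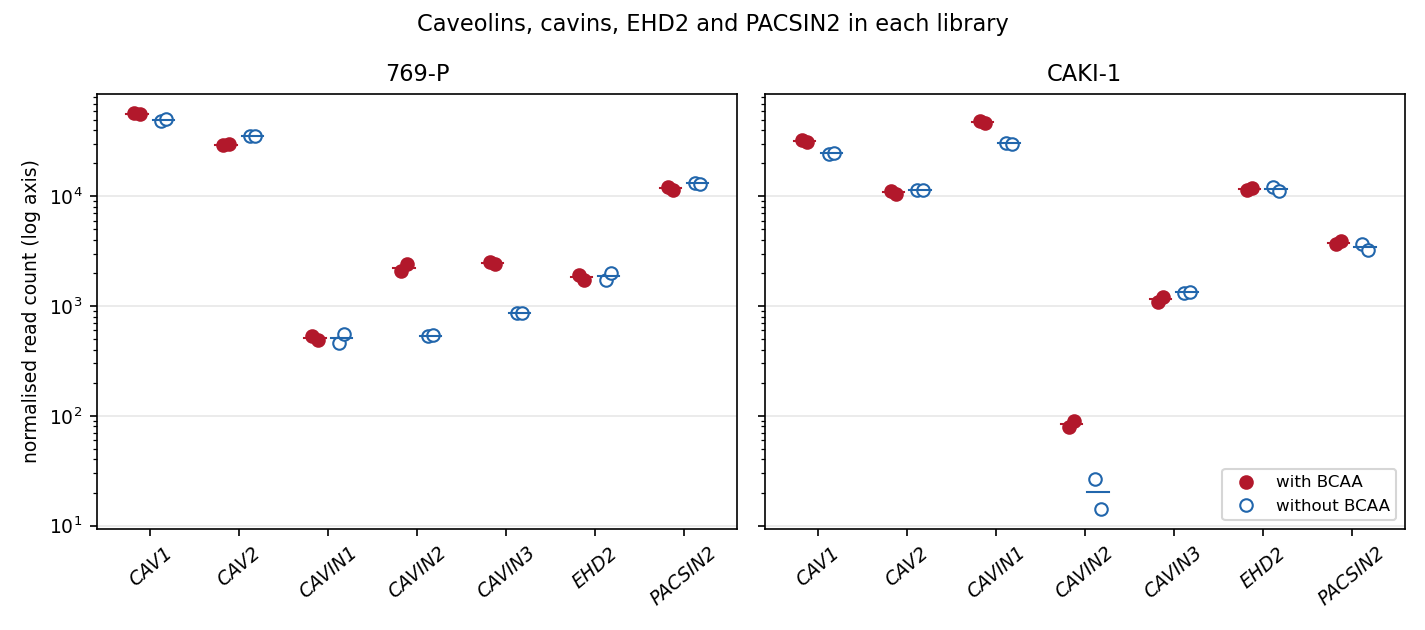
Normalised read counts of each member on a log10 axis, a point for each library, with libraries with and without BCAAs side by side in each line. CAV1, CAV2 and CAVIN2 separate in both lines, and PACSIN2 in 769-P alone. CAVIN3 stands at 2397 to 2529 with BCAAs against 857 to 863 without in 769-P. In CAKI-1 it is lower with BCAAs, at 1093.5 to 1219 against 1328 to 1342. CAVIN1 separates in CAKI-1 alone, at 46362 to 48451 against 29959 to 30809.8. Levels are to be compared within a line only.

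The first question was how each member responded to BCAAs in 769-P. Of the 6 members tested, 2 were higher with BCAAs (CAVIN3 and CAV1), 2 were lower (CAV2 and PACSIN2), and CAVIN1 and EHD2 did not pass the test. Of all 22391 genes tested in this line, 20.3% were called higher and 18.2% lower, and 38.4% in either direction, so a call by itself was common in this line. The libraries with and without BCAAs did not overlap for 4 of the 6 members, while 33.6% of all genes had both libraries with BCAAs above both without and 33.5% had both below. The median log2 fold change of the 6 was -0.0031, against -0.022 over all genes. All 7 members had passed the filter on low values, a mean of at least 1, in both lines.

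CAV1 encodes caveolin-1, the core protein of the pit. In 769-P its normalised counts were 57179 and 56313 with BCAAs and 48917 and 50641 without, so both libraries with BCAAs were above both without. It rose 1.14-fold, a log2 fold change of 0.19 (SE 0.0372, limma adjusted p = 0.00145). CAV2 encodes caveolin-2, which reaches the surface in oligomers with caveolin-1. Its counts were 29145 and 29794 with BCAAs and 35775 and 35499.8 without, again without overlap but the other way round. It fell, with a log2 fold change of -0.27 (SE 0.0371, limma adjusted p = 8.24e-05).

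The cavins moved unequally in 769-P. CAVIN3 (ENSG00000170955, minus strand, chr11:6318946-6320647), whose product cavin-3 binds protein kinase C delta, had normalised counts of 2529 and 2397 with BCAAs and 863 and 857 without. Both libraries with BCAAs were far above both without, a 2.86-fold rise with a log2 fold change of 1.52 (SE 0.0650, limma adjusted p = 5.18e-09). CAVIN1 (ENSG00000177469, minus strand, chr17:42402452-42423517) had counts of 534 and 494 with BCAAs and 462 and 552 without, which overlapped. Its log2 fold change was 0.02 (95% interval -0.22 to 0.27, limma adjusted p = 0.889), so a change of the size seen for CAVIN3 lay outside the interval.

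CAVIN2 (ENSG00000168497, minus strand, chr2:191834302-191847255), which encodes the phosphatidylserine-binding cavin-2, had counts of 2093 and 2398 with BCAAs and 530 and 543 without. Its mean was 4.18-fold higher with BCAAs, a log2 fold change of 2.06 (SE 0.0807, 95% interval 1.88 to 2.24). Because CAVIN2 was selected on its rise in both lines, its interval in each line describes the spread between libraries and is no test. These values rest on 2760 and 2804 reads with BCAAs and 427 and 444 without.

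At the neck, EHD2 (ENSG00000024422, plus strand, chr19:47713343-47743134), an ATPase that keeps caveolae at the surface, had counts of 1927 and 1744 with BCAAs and 1746 and 2009 without. The groups overlapped, with a log2 fold change of -0.03 (95% interval -0.20 to 0.14, limma adjusted p = 0.794). PACSIN2 (ENSG00000100266, minus strand, chr22:42835412-43015145), which encodes a membrane-bending F-BAR protein, had counts of 12201 and 11462 with BCAAs and 13360 and 13046 without. Both libraries with BCAAs were the lower ones, and the log2 fold change was -0.16 (SE 0.0447, limma adjusted p = 0.0138). In 769-P with any 1 of the 4 libraries left out, CAVIN3 was still called (adjusted p between 0.0159 and 0.0294), whereas CAV1 and PACSIN2 were not (0.0787 to 0.130 and 0.0657 to 0.222), and CAV2 was not called without either of the libraries without BCAAs (highest adjusted p = 0.0589). The fall of PACSIN2 was also not called after median centering (adjusted p = 0.132).

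**Figure D2:**
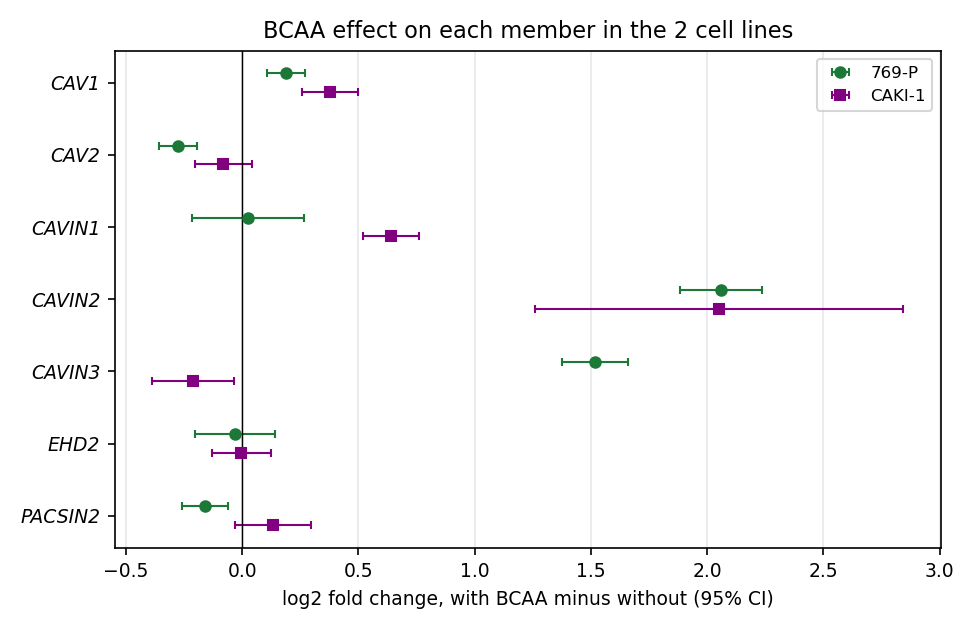
Log2 fold change with BCAAs for each member in 769-P and CAKI-1, with bars for the 95% interval of the limma fit. CAVIN2 lies at 2.06 and 2.05, CAVIN3 at 1.52 and -0.21, CAVIN1 at 0.02 and 0.64, and the intervals of EHD2 take in 0 in both lines. CAVIN2 was selected on its rise, so its intervals are no test.

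The second comparison was the same contrast in CAKI-1. Here CAV1 and CAVIN1 were higher with BCAAs, no tested member was lower by the test, and CAV2, CAVIN3, EHD2 and PACSIN2 did not pass. Over all 21347 genes tested, 10.8% were called higher and 9.05% lower, 19.9% in all. Here too the conditions did not overlap for 4 of the 6 members, against 28.9% of all genes with both libraries with BCAAs above both without and 28.8% with both below. The median log2 fold change of the 6 members was 0.065, against -0.0085 over all genes.

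CAV1 in CAKI-1 had normalised counts of 32793 and 31247 with BCAAs and 24306 and 24987 without, so every library with BCAAs was above every library without. It rose 1.299-fold (log2 fold change 0.38, SE 0.0547, limma adjusted p = 0.000662). CAV2 had counts of 11228 and 10573 against 11542 and 11512, slightly lower in both libraries with BCAAs. Its log2 fold change of -0.08 (95% interval -0.20 to 0.04, limma adjusted p = 0.362) did not pass.

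CAVIN1, the most abundant member per kilobase in this line, had counts of 48451 and 46362 with BCAAs and 30809.8 and 29959 without. The groups were well apart, and it rose 1.56-fold (log2 fold change 0.64, SE 0.0550, limma adjusted p = 1.77e-05). CAVIN3 had counts of 1093 and 1219 with BCAAs and 1328 and 1342 without, so both libraries with BCAAs were lower. The log2 fold change of -0.21 (95% interval -0.39 to -0.03) missed the threshold after adjustment (limma adjusted p = 0.0951).

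CAVIN2 was scarce in CAKI-1, with counts of 78.8 and 89.0 with BCAAs and 26.6 and 14.2 without. Its mean was 4.12-fold higher with BCAAs, a log2 fold change of 2.05 (SE 0.360, 95% interval 1.26 to 2.84). The reads behind it were 81 and 107 with BCAAs and 28 and 11 without, so the interval was wider than in 769-P. Leaving out 1 library moved the log2 fold change between 1.62 and 2.48, the lowest without replicate 2 of the cells without BCAAs and the highest without replicate 1.

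EHD2 had counts of 11472 and 11886 against 12140 and 11291, which overlapped (log2 fold change -0.0038, 95% interval -0.13 to 0.12, limma adjusted p = 0.975). PACSIN2 had counts of 3674 and 3922 against 3712 and 3227, which also overlapped (log2 fold change 0.13, 95% interval -0.03 to 0.30, limma adjusted p = 0.259). With any 1 of the 4 CAKI-1 libraries left out, limma called no gene at all in this line (4235 to 5687 genes had an unadjusted p under 0.05), CAV1 and CAVIN1 included, although their log2 fold changes stayed at 0.34 to 0.41 and 0.61 to 0.67. The summed renal markers also differed between conditions in CAKI-1, at 82121 to 84959.9 with BCAAs and 118215 to 122422 without, most of it from VIM, and their part in these results was not tested.

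The third comparison was between lines, tested as the difference of the BCAA effect in 1 fit over all 8 libraries. Of the 6 tested members, CAVIN3 had a higher effect in 769-P, CAV2, CAVIN1 and PACSIN2 had a lower one, and CAV1 and EHD2 did not pass. Over all 19406 genes tested, 10.9% had an effect called higher in 769-P and 10.1% one called lower, 21.1% in all. CAVIN3 stood furthest apart, with a difference in log2 fold change of 1.73 (SE 0.102, limma adjusted p = 1.08e-07). It was followed by CAVIN1 at -0.62 (SE 0.104, limma adjusted p = 0.000824). Both remained called in each fit with 1 of the 8 libraries left out.

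For PACSIN2, the difference was -0.29 (SE 0.0919, limma adjusted p = 0.0374), and for CAV2 it was -0.19 (SE 0.0638, limma adjusted p = 0.0466). Both were close to the threshold. With 1 library left out at a time, the CAV2 difference was called only without replicate 2 of CAKI-1 with BCAAs, and the PACSIN2 difference only without replicate 1 of 769-P with BCAAs or without replicate 1 of either CAKI-1 condition (highest adjusted p = 0.154 and 0.156). After quantile normalization the CAV2 difference was -0.06 (adjusted p = 0.585). CAV1, with a difference of -0.19 (SE 0.0639, limma adjusted p = 0.0524), lay just on the other side of the threshold, and passed it without replicate 2 of CAKI-1 with BCAAs (adjusted p = 0.0185). EHD2 had a difference of -0.03 (95% interval -0.24 to 0.19, limma adjusted p = 0.889). For CAVIN2, selected on both effects, the difference was not tested.

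**Figure D3:**
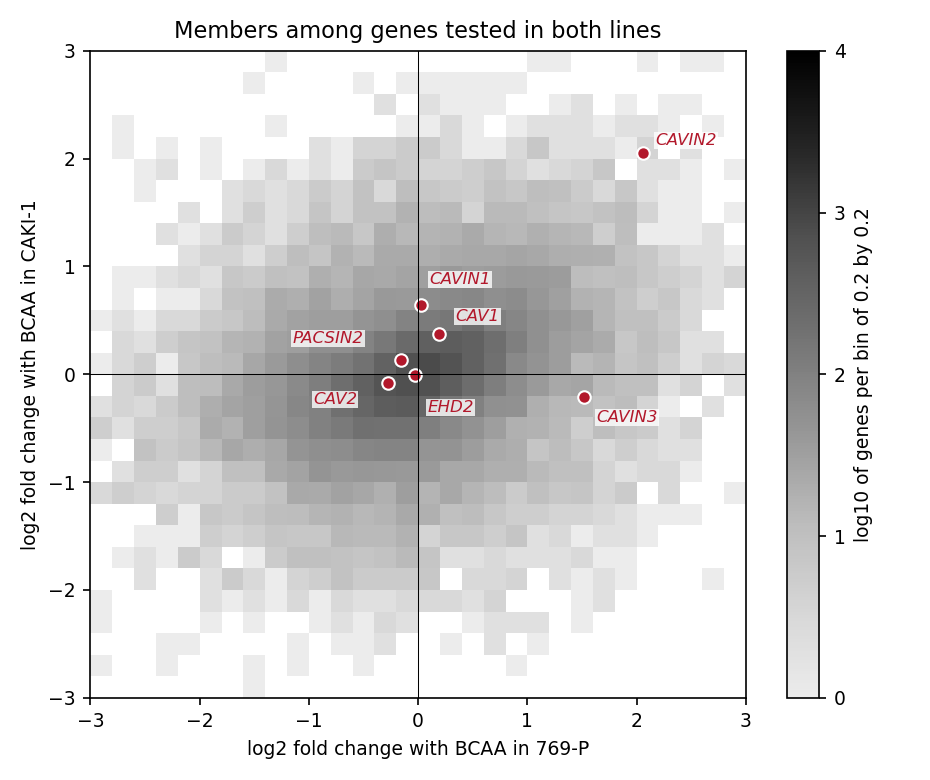
Log2 fold change with BCAAs in 769-P (x axis) and CAKI-1 (y axis) for genes tested in both lines, with shading for the log10 number of genes in each bin and red points for the 7 members. Both axes run from -3 to 3, and genes beyond that range are not drawn. CAVIN2 sits at the upper right, CAVIN3 at the right near the level of no change in CAKI-1, and the other members lie within 0.65 of 0 in both lines.

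The rise that CAVIN2 was selected on can be placed among the genes called higher in both lines, which made up 8.53% of the genes tested in both, that is, 1656 genes. Ordered by the smaller of the 2 log2 fold changes, CAVIN2 falls at rank 8, which describes its selection and is no test. RRM2, a subunit of ribonucleotide reductase, came just before it (2.46 in 769-P and 2.08 in CAKI-1), and MCM10, a DNA replication factor, came just after (2.01 and 2.38). Likeness to CAVIN2 was measured as the Euclidean distance over the 8 libraries of log2 values centred on each line, among 14370 genes. The 5 closest genes were GPRIN3 (distance 0.520), EMP2 (0.539), POLE2 (0.642), RRM2 (0.672) and MCM10 (0.680). After centring, what remains is the BCAA effect that CAVIN2 was selected on and the spread between libraries. This list therefore describes the same selection as the rank and is no test. EMP2 is a tetraspan membrane protein and POLE2 a subunit of DNA polymerase epsilon. GPRIN3 was itself low in CAKI-1, with a mean of 12.96 over its 4 libraries.

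The changes of single cavins added up differently in the 2 lines. In 769-P, the 3 cavins together stood at 12.6 and 12.7 per 100 of CAV1 plus CAV2 with BCAAs and at 4.67 and 4.71 without, on the per-kilobase scale. In CAKI-1, they stood at 138 and 140 per 100 with BCAAs and at 116 and 111 without. The ratio was thus higher with BCAAs in both libraries of each line. The share of CAVIN2 among the cavins of 769-P was 28.2% and 32.2% with BCAAs and 20.5% and 20.4% without, and that of CAVIN1 was 6.06% and 5.60% with BCAAs and 15.1% and 17.5% without. CAVIN3 made up most of the cavin mRNA in 769-P in all 4 libraries, between 62.2% and 65.8%, with no separation between conditions. In CAKI-1, CAVIN1 took 94.9% and 94.1% with BCAAs and 90.9% and 90.7% without, while CAVIN3 took 4.90% and 5.67% against 8.97% and 9.30%. CAVIN2 never exceeded 0.214% there. With the longest transcript, the mean CAVIN3 share in 769-P was 71.7% with BCAAs and 71.1% without. The mean CAVIN1 share in CAKI-1 was then 92.4% with BCAAs and 87.4% without.

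**Figure D4:**
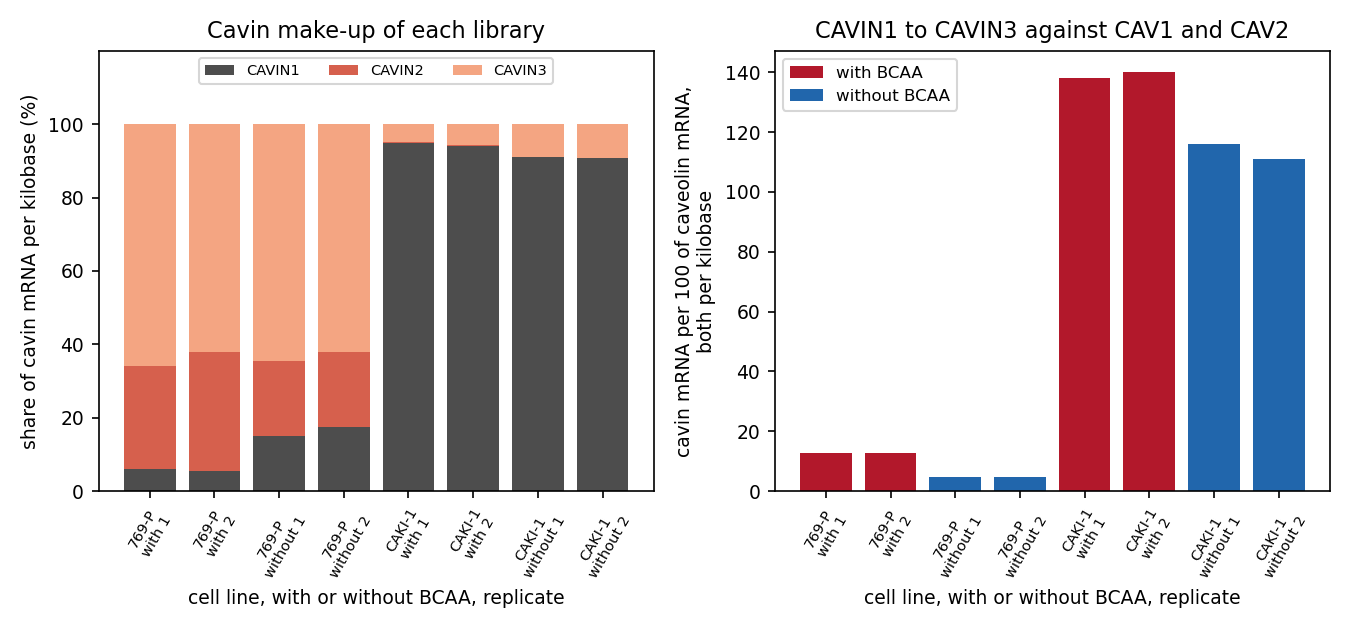
Left, the percent of cavin mRNA per kilobase that came from CAVIN1, CAVIN2 and CAVIN3 in each of the 8 libraries. Right, the summed cavins per 100 of CAV1 plus CAV2, both per kilobase, with red bars for libraries with BCAAs and blue bars for those without. CAVIN3 leads in 769-P and CAVIN1 in CAKI-1, and the bars on the right are below 13 in 769-P and above 110 in CAKI-1. The length is that of all annotated exons, and the heights depend on it.

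Within the caveolins, the balance moved toward CAV1 in both lines. CAV1 made up 76.9% and 76.2% of CAV1 plus CAV2 in 769-P with BCAAs and 69.9% and 70.8% without, and 83.2% and 83.4% against 78.1% and 78.6% in CAKI-1. With the longest transcript as the length, an alternative added after the data were seen, the mean share was 66.5% against 59.0% in 769-P and 75.2% against 68.8% in CAKI-1, again higher with BCAAs. The ratio of CAV2 to CAV1 per kilobase fell by 0.46 on the log2 scale in each line, and the libraries with and without BCAAs did not overlap. With 2 libraries against 2, an exact permutation test cannot go below p = 0.333, so no test is given for these shares and ratios, which were chosen after their values were seen.

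Some member exons overlap other genes, and since it is not stated whether strand was used in counting, reads there cannot be assigned with certainty. The exons of CAVIN3 overlap those of AC068733.3 on the opposite strand over 557 bases (33.3%). AC068733.3 was listed in 769-P only, with 2 reads and 1 read with BCAAs and 0 in both libraries without. CAVIN2 overlaps the antisense gene AC098617.1 over 233 bases (7.22%), which was listed in 769-P only, at 9.10 and 17.1 with BCAAs and 7.45 and 6.11 without, and did not pass the test. PACSIN2 shares 3.40% of its exon bases with ARFGAP3 on the same strand and CAV2 shares 1.10% with AC002066.1.

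The wider set of caveola neck, rim and linker proteins, 14 genes other than the members, was read by its counts. In 769-P, 13 were tested, 3 were higher with BCAAs and 6 lower, and the median log2 fold change was -0.16 (all genes 20.3% higher and 18.2% lower, median -0.022). In CAKI-1, 12 were tested, 5 were higher and 1 lower, with a median of 0.20 (all genes 10.8% and 9.05%, median -0.0085). DNM1, a dynamin that severs membrane necks, was the member of this list called higher in both lines, with log2 fold changes of 0.58 (SE 0.0475, limma adjusted p = 1.21e-06) in 769-P and 0.53 (SE 0.0768, limma adjusted p = 0.000672) in CAKI-1. FYN, a Src-family kinase, was lower in both. In 769-P its counts were 7.58 and 1.71 with BCAAs and 42.2 and 42.8 without (limma adjusted p = 0.00116), and in CAKI-1 they were 212 and 250 against 330 and 449 (log2 fold change -0.74, limma adjusted p = 0.00789). DNM2, the ubiquitous dynamin, and ROR1, a receptor that scaffolds cavin-1 and caveolin-1, were singled out after their values were seen. Both were called lower in 769-P (-0.16 and -0.41) and higher in CAKI-1 (0.28 and 0.42). The differences, 769-P minus CAKI-1, were -0.43 and -0.84. They come from the values that these 2 genes were picked on, so they are a description and no test. Of all genes tested in both lines, 5.83% were called lower in both and 1.32% in opposite directions. CAV3, the muscle caveolin, was not listed, and CAVIN4, the muscle cavin, did not pass the test in either line.

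For comparison with other endocytic coats, 10 flotillin and clathrin coat genes were read the same way. In 769-P, 4 of the 9 tested were higher with BCAAs and 1 lower, with a median of 0.10, where 20.3% and 18.2% of all genes were called. In CAKI-1, 1 of 9 was higher and none lower, with a median of 0.062, which is near the shares of all genes (10.8% and 9.05%). AP2S1, the small subunit of the AP-2 clathrin adaptor, was higher in both lines (log2 fold change 0.60, limma adjusted p = 4.42e-07 in 769-P, and 0.25, limma adjusted p = 0.00974 in CAKI-1). FLOT1 was not listed.

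Of 10 signalling proteins known to reside at caveolae, 3 of the 10 tested in 769-P were higher and 5 lower (median -0.25), against 20.3% and 18.2% of all genes. In CAKI-1, 1 of the 9 tested was higher and 2 lower (median -0.057), against 10.8% and 9.05% of all genes. INSR, the insulin receptor, fell in both lines (log2 fold change -0.69, limma adjusted p = 0.000163 in 769-P, and -0.52, limma adjusted p = 0.00857 in CAKI-1). PRKCA, protein kinase C alpha, fell as well (-0.24, limma adjusted p = 0.0021, and -0.20, limma adjusted p = 0.0460). LRP6, a Wnt co-receptor, rose in both (0.18, limma adjusted p = 0.0379, and 0.29, limma adjusted p = 0.0209). TGFBR2, a receptor for TGF-β, had the largest absolute change among the genes of this list called in 769-P (log2 fold change 0.81, limma adjusted p = 1.08e-06), while in CAKI-1 it stood at -0.08 (limma adjusted p = 0.425). The difference for TGFBR2 was 0.89 (SE 0.0859). It draws on the change that TGFBR2 was named for, so no test is given. Of the 9 genes of this list tested in both lines, 2 had an effect called higher in 769-P and 2 one called lower. Over all genes, the shares were 10.9% and 10.1%.

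**Figure D5:**
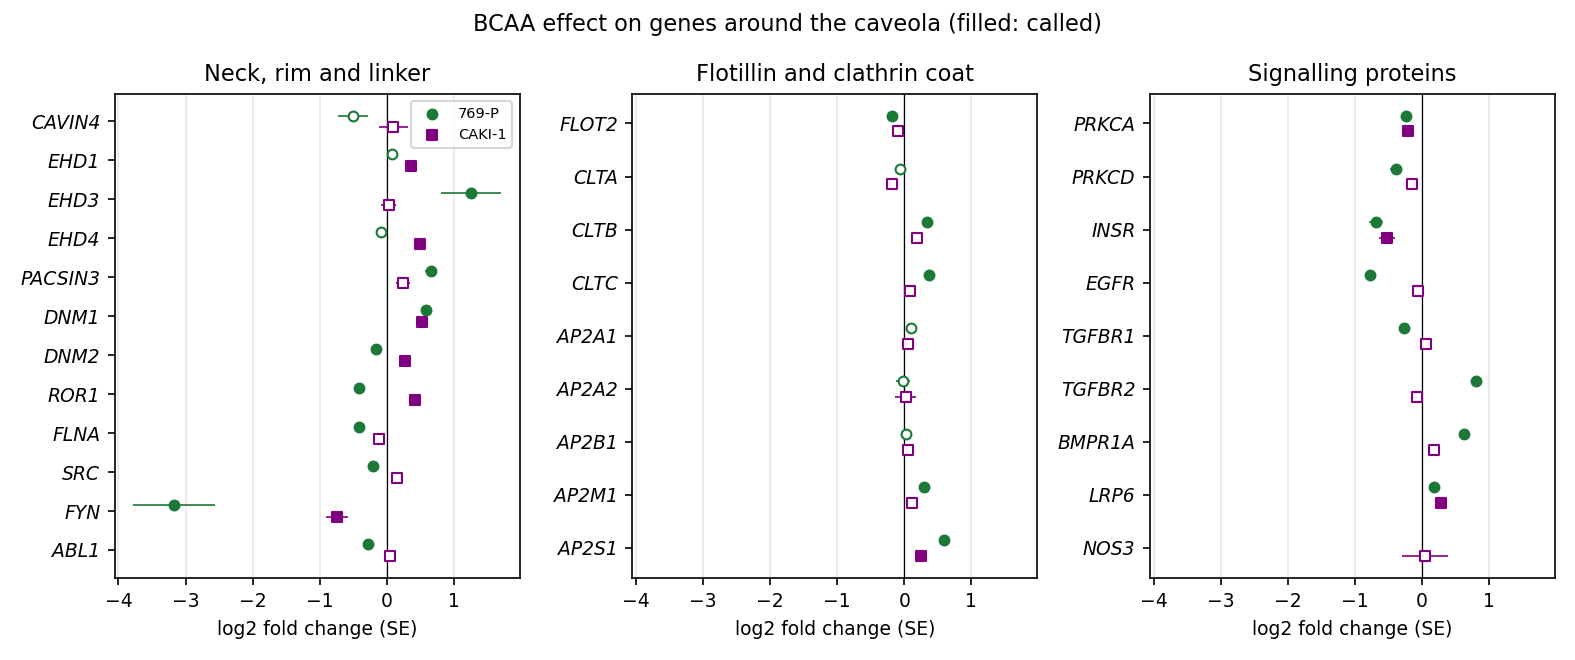
Log2 fold change with BCAAs in each line for the genes of the 3 lists with a mean of at least 10, with bars for the SE and filled points for genes called in that line. DNM1, AP2S1 and LRP6 lie above 0 and FYN, INSR and PRKCA below 0 in both lines.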

How the data were processed

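RNA-seq was analysed from 8 libraries, 2 per condition in each of 769-P and CAKI-1, grouped by the line and treatment in their labels. The deposited values are a signal in 1 table per line (25431 genes for 769-P and 24190 for CAKI-1), which is reads per gene divided by a size factor of the library (0.777 to 1.32). Every value was a whole multiple of 1 read within 0.001 (100%), and each listed gene had at least 2 reads over its 4 libraries. The submitters' processing notes name Trim Galore, TopHat2 2.1.0, SAMtools 1.3.1, HTSeq 0.6.0, DESeq, DESeq2 and hg38, and the annotation is not given in the sources used here. Symbols came from GENCODE 29.

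Genes whose mean reached 1 were tested as log2(value + 1) with limma 3.58.1 (trend) in R 4.3.3. Each line was fitted alone, with no block for replicate number, and p-values were adjusted over all genes by Benjamini-Hochberg, with a threshold of 0.05. The difference between lines was the interaction term of 1 limma fit over 8 libraries. Fold changes are on the log2(value + 1) scale, which understates the change of low genes. Scripts were tested on simulated data. Alternatives changed the pseudocount (0.1 and 10), the filter (a mean of at least 10, or none), the scaling, the threshold, the depth, the block, the libraries and the tool, with the recovered reads given to edgeR 4.0.16 or DESeq2 1.42.0.

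Genes named besides the members were those of the 3 lists called in both lines in the same direction, the gene of each list with the largest called change in each line, genes overlapping a member, and the 5 genes most like CAVIN2 with its neighbors in rank. DNM2 and ROR1 fall outside this rule and were named after their values were seen. The members, the lists and the rule were chosen with earlier results of these data known. The renal marker list was written with 10 genes, of which 1 is not reported here.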

Additional observations from a re-analysis of the deposited data

Results flagged for a closer look

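The BCAA effect of 4 of the 6 tested members differed between the lines by a test of the difference itself, the interaction term in limma. Over all 19406 genes tested, 21.1% were called for this difference, so such a call was common. CAVIN3 had a log2 fold change with BCAAs that was 1.73 higher in 769-P than in CAKI-1. The difference, 769-P minus CAKI-1, was -0.62 for CAVIN1, -0.29 for PACSIN2 and -0.19 for CAV2. The differences for CAV2 and PACSIN2 lay near the threshold and were no longer called in 11 and 7 of 18 alternatives, with the replicate block among them (adjusted p = 0.0984 and 0.0631). In 769-P the CAVIN3 counts were higher in 2 of 2 libraries with BCAAs than in either library without, and in CAKI-1 they were lower in 2 of 2, although that fall did not pass the test. Those of CAVIN1 overlapped between conditions in 769-P and were higher in 2 of 2 libraries in CAKI-1. Of all genes in 769-P, 33.6% had both libraries with BCAAs above both without and 33.5% had both below. In CAKI-1 the shares were 28.9% and 28.8%. What sets the lines apart was not tested.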

How the results depend on the processing

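Of the calls, the rise of CAVIN3 in 769-P and the differences between lines for CAVIN3 and CAVIN1 kept their direction and stayed past the threshold under every alternative tried, leaving out a library included. The rises of CAV1 in both lines and of CAVIN1 in CAKI-1, and the fall of CAV2 in 769-P, did so under every alternative except leaving out a library. With 1 library left out, the lone library of that arm was assumed to vary like the other pair. The CAV1 effect then lay between 0.16 and 0.21 in 769-P and between 0.34 and 0.41 in CAKI-1, that of CAV2 in 769-P between -0.29 and -0.26, that of CAVIN1 in CAKI-1 between 0.61 and 0.67, and that of PACSIN2 in 769-P between -0.20 and -0.11. In CAKI-1, limma then called 0 genes higher and 0 lower, with 4235 to 5687 genes at an unadjusted p under 0.05. In 769-P it called 1493 to 2211 higher and 1354 to 1510 lower. CAVIN1 in 769-P and EHD2, which were not called and whose intervals take in 0, changed sign under some alternatives. CAV2, PACSIN2 and CAVIN3 in CAKI-1 did not. CAVIN1 in 769-P lay between -0.10 and 0.15 with a library left out (-0.030 and -0.10 where reversed) and at -0.0049 after quantile normalization. EHD2 lay between -0.13 and 0.070 in 769-P (0.041 and 0.070 where reversed) and between -0.056 and 0.049 in CAKI-1 (0.022 and 0.049 where reversed). EHD2 stood at 0.0092 in 769-P and 0.037 in CAKI-1 after median centering, and at 0.030 in 769-P with thinned reads. Its difference between lines was 0.037 with thinned reads and between -0.13 and 0.074 with a library left out (0.044, 0.074 and 0.025 where reversed). The fall of PACSIN2 in 769-P was lost after median centering (-0.12) and with the spread shared by all 8 libraries (-0.16, adjusted p = 0.0673), under which CAVIN3 in CAKI-1 passed (-0.21, adjusted p = 0.0491). The CAV1 difference passed with a pseudocount of 0.1 (-0.19), a mean of at least 10 (-0.19), median centering (-0.22) and DESeq2 (-0.18), and lay between -0.22 and -0.15 with a library left out. The CAV2 difference was lost without a filter (-0.19), after quantile normalization (-0.057) and with edgeR (-0.18), and lay between -0.24 and -0.15 with a library left out. The PACSIN2 difference was lost with a pseudocount of 0.1 (-0.29) and lay between -0.39 and -0.19 with a library left out. The CAVIN2 effect lay between 2.004 and 2.0997 in 769-P and between 1.66 and 2.11 in CAKI-1 over the alternatives that kept all libraries. The lowest value came with thinned reads in 769-P and with a pseudocount of 10 in CAKI-1. The cause of these shifts was not tested. A minimum fold of 1.5 left 1984 genes higher and 1911 lower in 769-P and 725 and 481 in CAKI-1. An adjusted p of 0.01 left 1417 higher and 1012 lower in CAKI-1, where quantile normalization left 1390 higher.

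Same-numbered libraries did not deviate together (correlation 0.0095 in 769-P and 0.021 in CAKI-1), so the numbers were not taken as pairs. With a replicate block, the differences for CAV2 (-0.19, adjusted p = 0.0984) and PACSIN2 (-0.29, adjusted p = 0.0631) were no longer called, and no other call of a member changed. The block gave 4692 genes higher and 4233 lower in 769-P and 2133 and 1803 in CAKI-1. Depth limits the CAVIN2 values of CAKI-1 most, which rest on 11 to 107 reads per library.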
